A study of Mus musculus with 18 samples.

Results

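Chaperone and heat shock genes were followed in hippocampal cultures grown on chondroitin sulphate proteoglycans (CSPGs) from mice with and without Fibcd1. The genes were taken by name from the deposited table: the Hsp families, the numbered Dnaja, Dnajb and Dnajc genes, Cct2 to Cct8 with Tcp1, the Bag genes, and 13 further factors of the heat shock and unfolded protein responses. The rule gave 85 rows with 84 symbols of the 12012 rows in the table, because Hspa14 has 2 gene identifiers. The rule uses gene names and no threshold on a measured value.

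Chaperones bind unfolded proteins and help them to reach or keep their folded state. HSP70 proteins do this in cycles of ATP hydrolysis, which J proteins (the Dnaj genes) start and nucleotide exchange factors such as BAG and HSP110 proteins end. HSP90 proteins act on clients that are nearly folded, and the ring-shaped chaperonin TRiC encloses actin and tubulin, which growing neurites need in quantity. Several stress responses adjust this supply. Hsf1 drives the heat shock response in the cytosol. The unfolded protein response of the endoplasmic reticulum (ER) runs through Xbp1, Atf6 and the kinase encoded by Eif2ak3. That kinase also starts the integrated stress response, in which Atf4 and Ddit3 (CHOP) drive genes of amino acid supply and redox balance.

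The cultures came from hippocampi of E18.5 embryos and were labelled as neurons. The 4 WT CSPG libraries were from wild-type embryos and the 4 KO CSPG libraries from Fibcd1 -/- embryos, in which the gene is missing from every cell type. Both groups were plated on a CSPG coating, so the coating does not differ between them. The sampling time is given as day 3 in vitro in the study's text and day 2 in its appendix. The study calls the libraries biological replicates, but no label ties a library to an animal, so p-values measure the spread between these libraries. The series labels 18 libraries, of which the 5 WT and 4 KO libraries without a coating and a WT CSPG library with the letter E were not analysed here. The values show a difference between genotypes on CSPGs and cannot show a response to CSPGs.

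Each library held 10099564 to 11647202 reads on the genes of the table. Fibcd1, the targeted gene, gave 54.3, 70.4, 60.1 and 182 normalized counts in the WT CSPG libraries A to D and 0.970, 0.932, 7.16 and 4.74 in the KO CSPG libraries, so that the groups did not overlap. Neuronal markers were 7 of 7 in the table, with a summed value of 42618 to 44727 in WT CSPG and 43551 to 44775 in KO CSPG. Astrocyte markers were also high (7 of 7, 32779 to 39459 and 37139 to 41736), led by Gfap. Thus the cultures did not hold neurons alone. Within these sums, which a few genes carry, Slc17a6 was at -0.14 with groups that did not overlap, Gad1 at 0.19 and Syt1 at 0.07 (log2 fold change), and of the astrocyte genes Aqp4 was at 0.32 with no overlap and Gja1 at 0.27, none of them called. Oligodendrocyte lineage markers (7 of 7) summed to 1038 to 1346 in WT CSPG and 1652 to 1818 in KO CSPG, with Olig1 and Olig2 called higher. Microglia markers (5 of 7) summed to 1262 to 1406 in WT CSPG and 1306 to 1561 in KO CSPG. All 5 log2 fold changes were above 0 and none was called. Fibroblast markers (4 of 6) varied between libraries, at 188 to 615 in WT CSPG and 235 to 931 in KO CSPG, with no call. The choroid plexus marker Ttr reached 3529 in WT CSPG D and lay between 5.11 and 953 in the other libraries. The 4 Y-linked genes measured were lower in KO CSPG and Xist was higher, with all 5 past the threshold, so the sex of the embryos differed in proportion and cannot be told apart from genotype. In bulk RNA, fewer cells of a type and less RNA per cell cannot be told apart either.

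Short stretches of promoter show which of these genes carry the letters that the stress factors are known to bind. RefSeq start sites on GRCm38.p6 gave a window of 250 bases before to 50 bases after the start for 69 of the 84 symbols. The ER stress element was searched on both strands as CCAAT and CCACG with 9 bases between them. It stood in 6 of the 18 ER members with a promoter, Hspa5, Hsp90b1, Calr, Canx, Dnajc3 and Pdia6, and in 0.137% of all 27025 genes with a promoter (0.151% of the 9242 genes of the table with one). All 6 stretches are shown so that they can be set beside the measured changes. Capitals mark the element, and each stretch is written 5′ to 3′ on the strand of its gene.
Hspa5, chr2:34772010-34772058, plus strand: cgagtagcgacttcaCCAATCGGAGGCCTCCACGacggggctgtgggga
Calr, chr8:84847060-84847108, minus strand: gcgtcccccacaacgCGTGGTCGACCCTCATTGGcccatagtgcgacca
Hsp90b1, chr10:86705518-86705671, minus strand: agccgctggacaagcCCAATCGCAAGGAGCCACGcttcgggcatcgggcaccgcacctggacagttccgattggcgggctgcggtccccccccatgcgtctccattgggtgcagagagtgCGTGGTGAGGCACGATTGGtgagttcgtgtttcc
Canx, chr11:50325785-50325833, minus strand: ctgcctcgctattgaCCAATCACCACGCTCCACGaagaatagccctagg
Dnajc3, chr14:118937812-118937860, plus strand: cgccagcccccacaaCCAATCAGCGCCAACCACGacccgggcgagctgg
Pdia6, chr12:17266476-17266524, plus strand: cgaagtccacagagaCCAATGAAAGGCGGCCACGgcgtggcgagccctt
Hsp90b1 holds 2 elements, read on either strand. In Calr the element is read on the opposite strand, and in the other 4 genes it is read on the strand of the gene.

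The heat shock element was searched as 3 units of GAA and TTC in turn, with 2 bases between units. It stood in 4 of 69 members, Dnajb6, Hspd1, Hspe1 and Hsph1, and in 0.662% of all genes with a promoter (0.584% of those in the table). Hspd1 and Hspe1, which encode the mitochondrial chaperonin HSP60 and its lid HSP10, are neighbours on opposite strands and share 1 stretch. It is shown on both strands, with 2 overlapping matches in capitals. The stretch lies upstream of the Hspe1 start and of the Hspd1 start at 55087932. For the other Hspd1 start, at 55088243, it lies downstream, inside the gene.
Hspd1, chr1:55088044-55088091, minus strand: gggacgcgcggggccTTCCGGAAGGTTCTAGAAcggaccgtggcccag
Hspe1, chr1:55088044-55088091, plus strand: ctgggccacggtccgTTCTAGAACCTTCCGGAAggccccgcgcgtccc
The amino acid response element, to which Atf4 binds with a partner, was searched on both strands as TGATGNAAT or TGATGNAAC. None of the 69 member windows held it, where 1.95% of all genes with a promoter and 1.104% of those in the table (102 of 9242) did. Of the pathway genes outside the members it stood in 5. These were Chac1 and Asns, of 13 stress response genes with a promoter, and Herpud1, Cnpy2 and Txndc5, of 15 other ER genes with one. None of the 20 cochaperones and 6 mitochondrial genes with a promoter held it. Their changes differed: Chac1 and Herpud1 were called lower, and Asns (-0.09), Txndc5 (-0.02) and Cnpy2 (0.20) were not called on the log2 scale. Of the 3 pathway genes called, Sesn2 had a window without the element, as did Ppp1r15a, which was not called. The stretches of Chac1 and Herpud1 are shown.
Chac1, chr2:119351033-119351071, plus strand: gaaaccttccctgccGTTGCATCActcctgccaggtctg
Herpud1, chr8:94386301-94386339, plus strand: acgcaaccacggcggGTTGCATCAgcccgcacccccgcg
A match of letters is a description of the window and does not show that a factor was bound.

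Across the members the difference between genotypes was small. Values were compared as log2(normalized count + 1) with limma, with adjustment over all 12012 genes, and a gene was called at an adjusted p under 0.05. The added 1 shrinks the fold changes of low genes. No member was called higher and 1 of 85, Atf4, was called lower, and these counts were the same in each of the 8 fits that left out 1 library. Of the 11553 genes counted, 2.83% were called, 1.06% higher and 1.77% lower. At an unadjusted p under 0.05 there were 6 members higher and 12 lower, or 21.2% of the members, where 16.2% of all genes passed. The median log2 difference, KO CSPG minus WT CSPG, was -0.0028 over the members and -0.0002 over all genes counted.

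The members were measured more tightly than most genes. Their median standard error was 0.045 on the log2 scale against 0.061 for all genes counted, and their median level was 895 against 422 normalized counts. The fold change was under 1.1 in either direction for 73 of 85 rows and at least 1.2 for 2, which were Atf4 and Ddit3. The 95% interval of the fold change lay within 1.1-fold for 40 rows, within 1.2-fold for 63 and within 1.5-fold for all 85. The 8 libraries gave the members 1.52% to 1.54% of all normalized counts, with no separation of the groups.

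**Figure D1:**
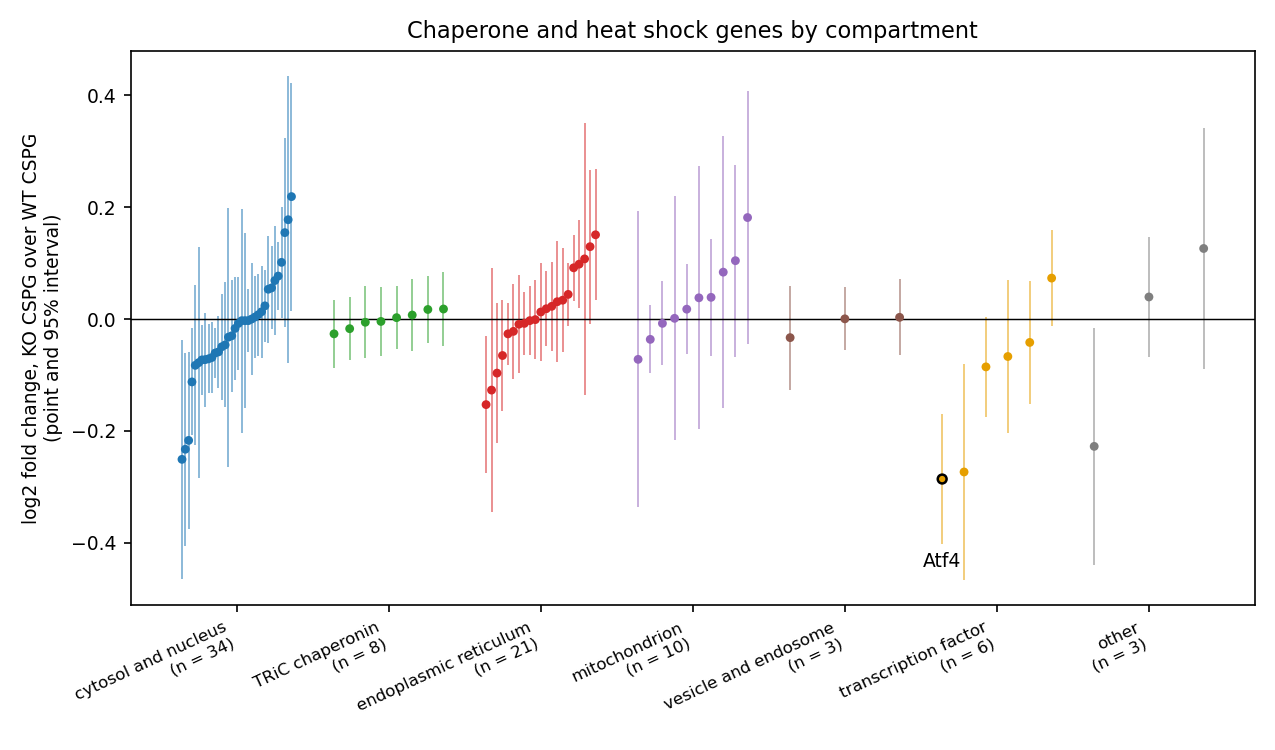
Each point is a member's log2 fold change, KO CSPG against WT CSPG, with its 95% interval, ordered by value within each compartment (4 libraries a group). Atf4, circled, was the 1 member called, the 8 TRiC subunits lie between -0.03 and 0.02, and the widest intervals belong to low genes.

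The groups did not overlap for 13 members, or 15.3% of the 85, where 9.24% of all genes counted did not overlap. For 4 members every KO CSPG library lay above every WT CSPG library (4.71%, against 4.04% of all genes), and for 9 every one lay below (10.6%, against 5.2%). The 4 were Hspa5, Hspa8, Pdia4 and Dnajb2. The 9 were Atf4, Hsp90aa1, Hsp90ab1, both rows of Hspa14, Dnajc1, Dnajc7, Bag5 and Bag6. No test was made of these shares, and the smaller standard errors of the members stand beside them.

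Atf4, on chr15:80255184-80257540 of GRCm38 (plus strand), encodes the transcription factor of the integrated stress response. It gave 2052, 1806, 2080 and 1730 normalized counts in WT CSPG and 1565, 1501, 1649 and 1559 in KO CSPG. Every KO CSPG library was below every WT CSPG library, and WT CSPG A and C were the highest. The mean fell from 1917 ± 175 to 1568 ± 60.9 (SD, n = 4 each), a log2 fold change of -0.29 ± 0.05 (SE) with a limma adjusted p of 0.0092. The call held in each of the 8 fits without 1 library, with log2 fold changes from -0.33 to -0.25. It was lost when the prior variance had no trend (adjusted p = 0.122). It was also lost with the Y-linked genes as a covariate, where the log2 fold change was 0.05 (adjusted p = 0.971), but genotype accounts for 91.2% of the variance of that covariate. The part of the sex of the embryos, of the oligodendrocyte lineage and of Ttr in the Atf4 difference was not tested.

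Among the other 5 transcription factors none was called. Ddit3, a target and partner of Atf4 that promotes cell death when stress persists, gave 176, 170, 177 and 157 normalized counts in WT CSPG and 121, 132, 157 and 153 in KO CSPG. KO CSPG C reached the lowest WT CSPG library, so the groups overlapped. Its log2 fold change was -0.27 ± 0.09 (SE, adjusted p = 0.121). An exon of Ddit3 overlaps Mars on the opposite strand, by 3.97% of its exon bases, and the reads of the overlap cannot be assigned where counting ignores strand. Another gene identifier named Ddit3 shares 105 of its exon bases (6.13%) on the same strand, where strand cannot separate the reads.

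The activators of the heat shock response and of the other ER branches had overlapping groups. Hsf1 gave 318 to 338 normalized counts in WT CSPG and 291 to 350 in KO CSPG, with a log2 fold change of -0.07 (95% interval -0.20 to 0.07). Hsf2, its relative, was at -0.09 (-0.175 to 0.005). Atf6, the ER-bound activator, was at -0.04 (-0.15 to 0.07), and Xbp1, whose transcript is spliced when the ER is stressed, was at 0.07 (-0.01 to 0.16). These are levels of the whole gene, and neither the splicing of Xbp1 nor the cleavage of Atf6 can be read from them.

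A list of 13 genes of the unfolded protein and integrated stress responses was found in the table. It mixes targets of Atf4 with genes upstream of it or of other branches, such as Eif2ak3 and Ern1. Of the 13, 2 were called lower and none was called higher, where 1.77% of all genes counted were called lower and 1.06% higher. At an unadjusted p under 0.05 there were 6 lower and none higher, where 16.2% of all genes passed. For 3 of the 13 every KO CSPG library lay below every WT CSPG library, as for 5.2% of all genes. The log2 fold changes were below 0 for 9 of 13, with a median of -0.12 against -0.0002 over all genes counted. No test was made of these shares. Chac1, an enzyme that degrades glutathione, gave 76.3, 71.5, 71.8 and 68.3 normalized counts in WT CSPG and 48.5, 39.2, 47.0 and 43.6 in KO CSPG. The groups were well apart, and this was the largest difference of the list, at -0.68 ± 0.14 (SE, limma adjusted p = 0.0045). The call held without each library in turn, with adjusted p-values from 0.0046 to 0.0208, and was lost with the Y-linked covariate.

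Sesn2, a sensor of leucine that restrains mTORC1, gave 457, 393, 501 and 355 normalized counts in WT CSPG and 303, 332, 350 and 335 in KO CSPG. WT CSPG D lay only just above KO CSPG C. The log2 fold change was -0.36 ± 0.09 (SE, adjusted p = 0.0410), and without single libraries the adjusted p ran from 0.0005 to 0.131. Herpud1, which takes part in the disposal of misfolded ER proteins, gave 410, 357, 393 and 374 in WT CSPG and 330, 320, 350 and 290 in KO CSPG. Its groups did not overlap, and the log2 fold change was -0.25 ± 0.07 (SE, adjusted p = 0.0340, 0.0266 to 0.132 without single libraries). Thus the calls of Sesn2 and Herpud1 were near the threshold and were lost in 6 and 5 of the 8 fits without 1 library. Those of Atf4 and Chac1 held in all 8. In these fits the log2 fold changes ran from -0.44 to -0.28 for Sesn2 and from -0.29 to -0.20 for Herpud1. The genes called in all fell from 327 to as few as 177, but rose to 550 without WT CSPG D. The calls of Sesn2 and Herpud1 were also lost, as for Atf4, with no trend of the prior variance and with the Y-linked covariate.

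Other genes of the response gave values on the same side without passing the threshold. Ppp1r15a, the phosphatase subunit that ends the response, had a log2 fold change of -0.24 (adjusted p = 0.0649) with groups that did not overlap. Slc7a11, the cystine transporter, was at -0.40 (adjusted p = 0.173) and Ern1, the ER sensor upstream of Xbp1, was at -0.19 (adjusted p = 0.248). The Atf4 targets did not all follow: Asns, for asparagine synthesis, was at -0.09 (adjusted p = 0.263) and Psat1, for serine synthesis, at 0.001 (95% interval -0.09 to 0.09). Eif2ak3, the kinase upstream of Atf4 at the ER, was at -0.10 (-0.22 to 0.02).

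**Figure D2:**
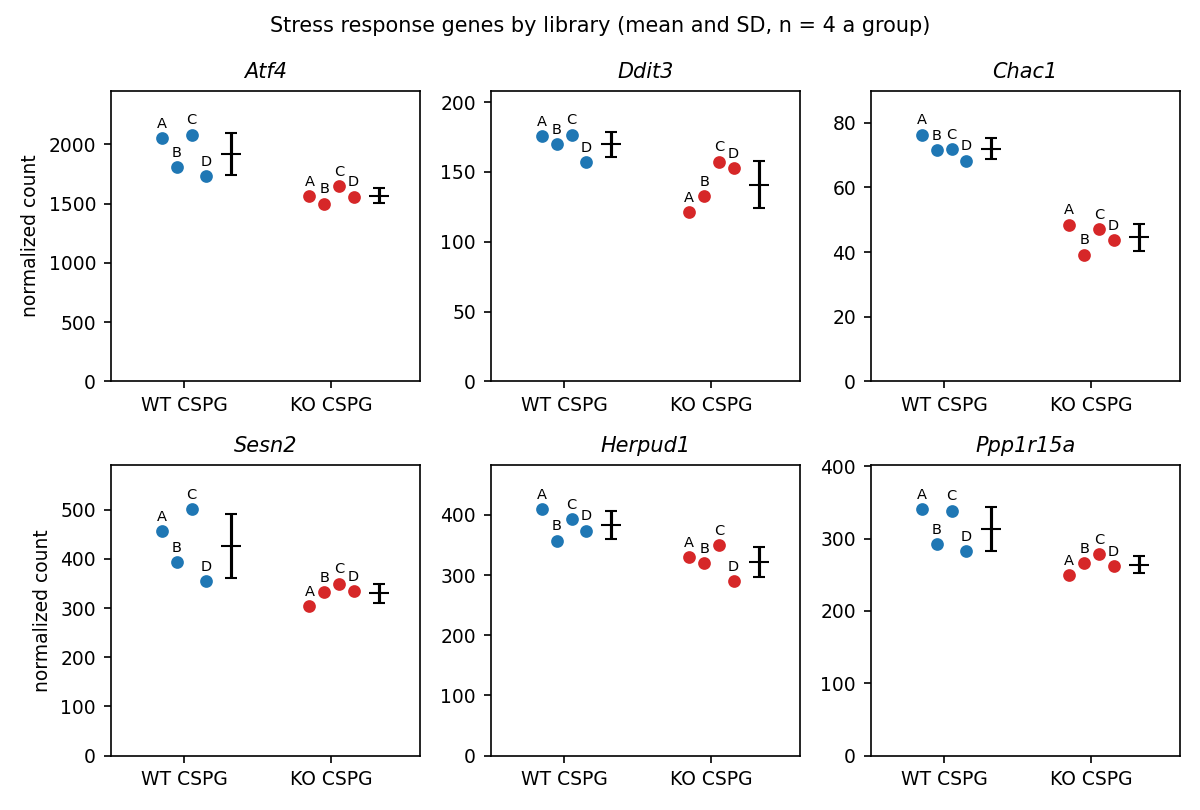
Normalized counts of 6 stress response genes in each library, with replicate letters, and the mean and SD of 4 libraries a group. Atf4, Chac1, Sesn2, Herpud1 and Ppp1r15a show no overlap of the groups, Ddit3 overlaps through KO CSPG C, and Chac1 is furthest apart.

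The ER held 21 members, with a median log2 fold change of 0.01. At an unadjusted p under 0.05 there were 3 higher and 1 lower, where 16.2% of all genes passed. None of the 21 was called. Hspa5 (BiP), the main HSP70 of the ER and the brake on all its stress sensors, came closest. It gave 4322, 4196, 4443 and 4403 normalized counts in WT CSPG and 4737, 4597, 4585 and 4582 in KO CSPG. Every KO CSPG library was above every WT CSPG library, and KO CSPG A was the highest. The log2 fold change was 0.09 ± 0.03 (SE), or 6.56%, with an adjusted p of 0.0866. It passed the threshold only with upper-quartile scaling (adjusted p = 0.0459), a scaling that moves the median of all genes by 0.01.

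Pdia4, a disulphide isomerase, gave 1057, 1041, 1026 and 1025 normalized counts in WT CSPG and 1107, 1140, 1124 and 1071 in KO CSPG. The groups did not overlap, and the log2 fold change was 0.10 ± 0.04 (SE, adjusted p = 0.182). Dnajb14, a J protein of the ER membrane, was at 0.15 (adjusted p = 0.167) with groups that overlapped. Dnajc1, another J protein of that membrane, lay on the other side, at -0.15 (adjusted p = 0.181), with all KO CSPG libraries below all WT CSPG libraries.

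The remaining ER chaperones had log2 fold changes near 0, and for the abundant ones the interval is narrow. Hsp90b1 (GRP94), the HSP90 of the ER, gave 4570 to 4690 normalized counts in WT CSPG and 4536 to 4683 in KO CSPG, a log2 fold change of -0.01 (95% interval -0.06 to 0.05). The lectin chaperones of the calnexin cycle were at -0.03 (-0.08 to 0.03) for Canx and 0.04 (-0.01 to 0.10) for Calr. Pdia3, the isomerase that works with them, was at -0.003 (-0.06 to 0.06). Hyou1, the exchange factor of BiP, was at -0.001 (-0.07 to 0.07), Pdia6 at 0.02 (-0.05 to 0.09) and Dnajc3 at 0.03 (-0.06 to 0.13). The J proteins of BiP gave -0.01 (-0.10 to 0.08) for Dnajb11 and 0.13 (-0.01 to 0.27) for Dnajb9, which also restrains the sensor encoded by Ern1. Sdf2l1, a low gene of 78.0 to 109 normalized counts, had the widest interval of those named, from -0.14 to 0.35. Among the 6 members with an ER stress element shown above, the log2 fold changes ran from -0.03 for Canx to 0.09 for Hspa5.

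A list of 21 other genes of ER folding and degradation in the table had 1 gene called lower, Herpud1, and none called higher. At an unadjusted p under 0.05 there were 1 higher and 2 lower, where 16.2% of all genes passed. Cnpy2 was nearest to a call in the other direction, at 0.20 (adjusted p = 0.0508) with groups that did not overlap. The isomerase P4hb was at -0.02 (95% interval -0.09 to 0.05).

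The cytosol and nucleus held 34 members, none of which was called, with a median log2 fold change of -0.01. At an unadjusted p under 0.05 there were 3 higher and 8 lower, where 16.2% of all genes passed. Hsp90ab1, the constitutive cytosolic HSP90, was the most abundant member both in normalized counts and per kb of gene length (9006 per kb, with Cct2 next at 2671), and made up 15.6% to 16.7% of the members' summed value. It gave 27437, 28031, 27664 and 27175 normalized counts in WT CSPG and 25929, 26385, 26495 and 26955 in KO CSPG. All KO CSPG libraries were lower, but WT CSPG D and KO CSPG D were close. The log2 fold change was -0.06 ± 0.02 (SE, adjusted p = 0.141).

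Hsp90aa1, its stress-inducible partner, gave 2670, 2661, 2622 and 2607 normalized counts in WT CSPG and 2515, 2546, 2539 and 2438 in KO CSPG. The groups did not overlap here either, and the log2 fold change was -0.07 ± 0.03 (SE, adjusted p = 0.222). Both cytosolic HSP90 genes were thus lower in each KO CSPG library, by amounts too small to be called. Hspa8 (HSC70), the constitutive cytosolic HSP70, gave 3278, 3242, 3313 and 3303 normalized counts in WT CSPG and 3593, 3391, 3428 and 3446 in KO CSPG. It lay on the other side, with no overlap, at 0.08 ± 0.03 (SE, adjusted p = 0.174). Processed copies of several chaperone genes lie elsewhere in the genome, and reads that fit both cannot be assigned with certainty, which holds for Hsp90ab1, Hspa8, Hspd1 and Hspe1.

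**Figure D3:**
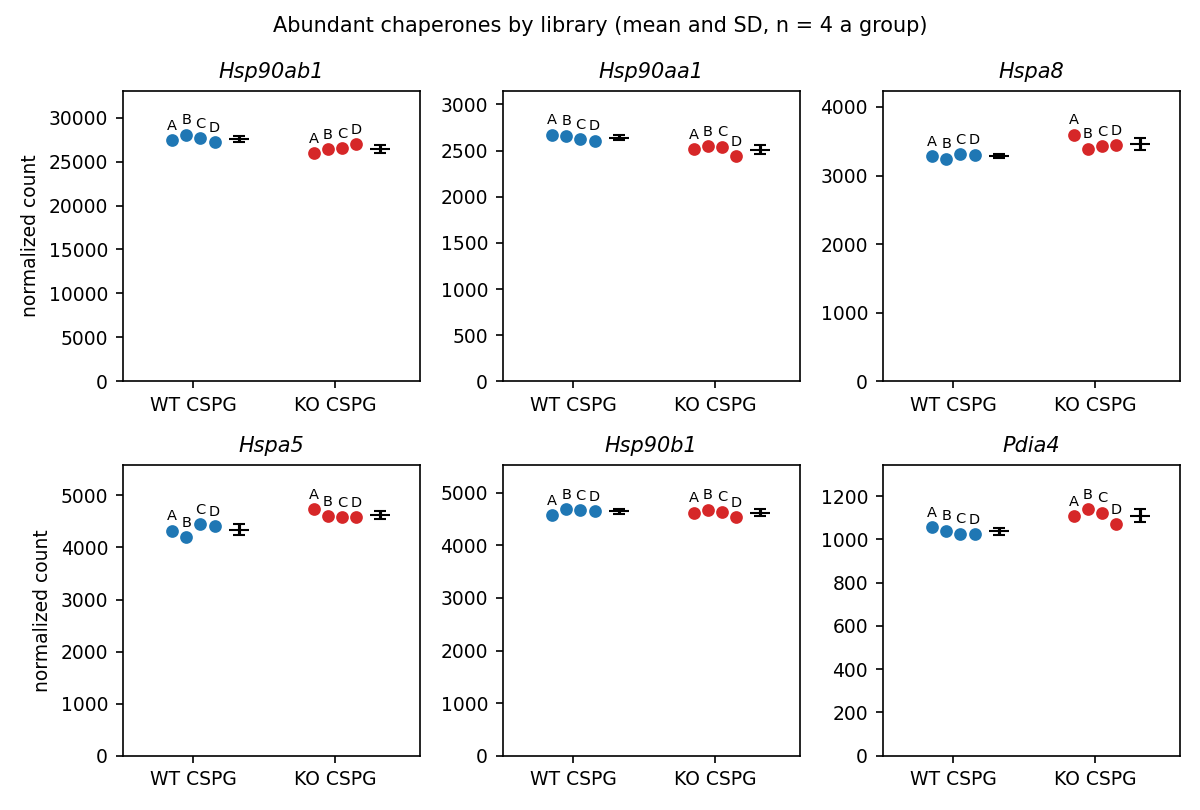
Normalized counts of 6 abundant cytosolic and ER chaperones in each library, on axes that start at 0, with the mean and SD of 4 libraries a group. The groups do not overlap for Hsp90ab1, Hsp90aa1, Hspa8, Hspa5 and Pdia4, yet each difference is a small share of the level, and Hsp90b1 overlaps.

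Other members of the HSP70 system in the cytosol gave mixed values. Hsph1, an HSP110 and a classical heat shock gene, was at -0.06 (95% interval -0.12 to 0.01) and Hspa4, another HSP110, at -0.003 (-0.06 to 0.05). Hspa14, an HSP70 that sits at the ribosome, was lower in both of its rows, at -0.22 (adjusted p = 0.134) and -0.11 (adjusted p = 0.217). The 2 rows share 321 exon bases on the same strand, and GENCODE names 1 of them Gm45902, so they are not independent. The J proteins Dnaja1, at 0.004 (-0.07 to 0.08), and Dnajb1, at 4.9e-05 (-0.10 to 0.10), both of which partner cytosolic HSP70, were near 0. Dnaja4 shares 44.1% of its exon bases with Wdr61 on the opposite strand, so its value is uncertain.

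Bag3, which with Hspb8 sends damaged proteins to autophagy, gave 186, 173, 203 and 208 normalized counts in WT CSPG and 175, 165, 159 and 155 in KO CSPG. KO CSPG A lay above WT CSPG B, so the groups overlapped, and the log2 fold change was -0.23 ± 0.08 (SE, adjusted p = 0.141). Bag2, which blocks the ubiquitin ligase Stub1, was at 0.22 (adjusted p = 0.268), and Bag6, which guards tail-anchored and misfolded proteins, at -0.07 (adjusted p = 0.228). The small heat shock gene Hspb6 had the most negative value of the cytosolic members, at -0.25 (adjusted p = 0.216), with 92.0 to 127 normalized counts over the 8 libraries. Hspa1a, Hspa1b and Hspb1, the genes most strongly induced by heat, were not analysed here.

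Cochaperones of the cytosol outside the named members gave no call among 26 genes. At an unadjusted p under 0.05 there were 3 higher and 2 lower, where 16.2% of all genes passed. Chordc1, an HSP90 cochaperone, was at 0.13 (adjusted p = 0.111) and Unc45a, which assists the folding of myosin, at -0.14 (adjusted p = 0.103). Of the genes that deliver clients to HSP90, Stip1 (HOP) was at -0.02 (95% interval -0.09 to 0.05) and Cdc37 at -0.01 (-0.10 to 0.07).

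The 8 subunits of TRiC showed little difference between the groups. None was called or passed an unadjusted p of 0.05, and their log2 fold changes ran from -0.03 (Cct2) to 0.02 (Cct5), with a median of -0.0009. All 8 intervals lay within 1.1-fold, so a 1.1-fold change in either direction lies outside the 95% interval of every subunit. Cct8, for example, gave 4438, 4400, 4434 and 4513 normalized counts in WT CSPG and 4441, 4414, 4556 and 4404 in KO CSPG. Its libraries were interleaved, with a coefficient of variation of 1.248% over all 8, and the other subunits reached up to 3.21%. The subunits stand in equal number in the protein complex, but their levels ran from 592 normalized counts per kb for Cct3 to 2671 for Cct2. The length given in the table is the union of all annotated exons for 66 of the 85 members, which lowers the level per kb of genes with long minor isoforms. Exons of Cct6a overlap Psph (12.5% of its exon bases) and those of Tcp1 overlap Acat3 (11.4%), on opposite strands. Smaller overlaps were found for Cct7 and Cct8. As for Ddit3, the reads of an overlap cannot be assigned where counting ignores strand.

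The mitochondrion held 10 members, none of which was called or passed an unadjusted p of 0.05. Hspa9 (mortalin), the HSP70 that pulls proteins into the matrix, was at -0.04 (95% interval -0.10 to 0.02). The chaperonin pair gave -0.01 (-0.08 to 0.07) for Hspd1 and 0.10 (-0.07 to 0.28) for Hspe1, whose shared stretch is shown above. Their levels differed widely, at 1616 to 1794 normalized counts for Hspd1 and 177 to 226 for Hspe1, and their exons overlap on opposite strands by 112 bases. A list of 8 other mitochondrial chaperones and proteases had no call. At an unadjusted p under 0.05, which 16.2% of all genes passed, 1 gene was higher. It was Trap1, the HSP90 of the matrix (0.10, adjusted p = 0.238).

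The 3 J proteins of vesicles and endosomes are the ones most tied to neuronal membrane traffic, and none was called or passed an unadjusted p of 0.05. Dnajc5 (cysteine string protein), which keeps SNARE proteins folded at synaptic vesicles, gave 5143 to 5408 normalized counts in WT CSPG and 5226 to 5303 in KO CSPG. The KO CSPG range lay inside the WT CSPG range, and the log2 fold change was 0.0004 (95% interval -0.06 to 0.06). Dnajc6 (auxilin), which uncoats clathrin vesicles, was at 0.003 (-0.06 to 0.07), and Dnajc13, which acts on endosomes, at -0.03 (-0.13 to 0.06). The 3 remaining members, Hspbap1, Dnajc27 and Hspb11, fit no compartment list and were at -0.23, 0.04 and 0.13, with adjusted p-values of 0.269, 0.783 and 0.614.

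**Figure D4:**
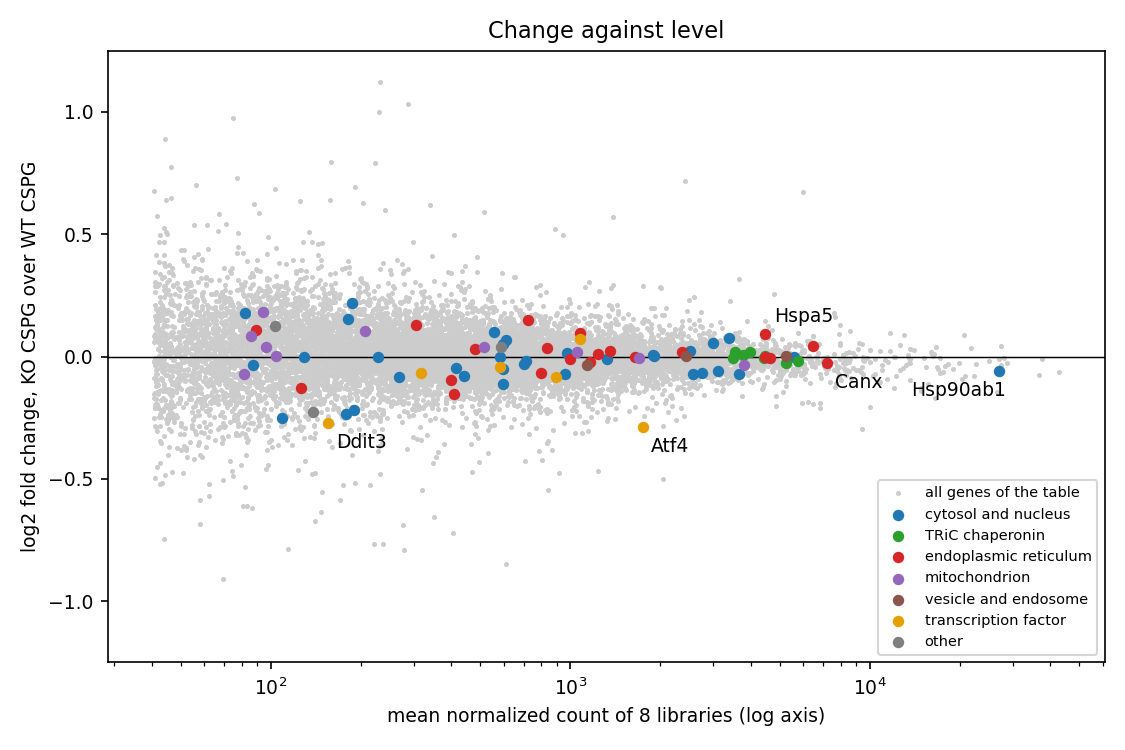
Log2 fold change between KO CSPG and WT CSPG (positive where KO CSPG is higher) plotted against the mean normalized count of the 8 libraries (log axis), with members coloured by compartment and the genes of the table in grey. Most members lie near 0 at every level, Atf4 has the lowest log2 fold change of the members, and genes beyond the vertical limits are not drawn.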

How the data were processed

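Poly-A RNA of 8 of the 18 labelled libraries was analysed. The authors ran DESeq2 and deposited normalized counts, a signal made by dividing each gene's reads by the library's size factor; per the labels the genome build is mm10, and the aligner, the counting program and its strand setting are not given in the sources used here. The deposited table also holds the authors' fold changes and p-values, which were not used, and 0 per-sample columns were left unused. No gene has a mean under 40.7. Values were whole multiples of 1 step per library, which gave the reads. No count model was fitted to these reads.

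The test was limma 3.58.1 (R 4.3.3, trend and robust prior variance) on log2(value + 1), with Benjamini-Hochberg adjustment over 12012 genes. Following the study, 459 pseudogenes and X- or Y-linked genes stayed in the fit but out of the counts of calls, which cover 11553 genes. Identifiers were matched to GENCODE M21, which held all 85 members. On data simulated for this comparison over 12012 genes, 96 of 100 genes changed by 0.5 (log2) and 99 of 100 changed by 1 were called, as were 10 of 11812 unchanged genes. The members' log2 fold changes ran from -0.29 to 0.22, and no change that small was simulated. How often changes of the members' size are called was therefore not measured. The members, gene lists and the rule for named genes were chosen with earlier results of these data known. That rule names the members called, the 3 with the smallest p in each direction, a list of 41 members and the pathway genes called; other genes were named after their values were seen. Alternatives were other pseudocounts (0.1 and 10), a mean of at least 100, other prior variances, upper-quartile scaling, a replicate block, a Y-linked covariate and leaving out each library.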

Additional observations from a re-analysis of the deposited data

Results flagged for a closer look

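In 14 of 178 groups of 4 libraries (all 85 rows of members, Fibcd1, Chac1, Sesn2 and Herpud1, in each genotype), 1 library stood further from the other 3 than Dixon's 95% limit for 4 values allows, where chance gives about 8.9, 1 in 20. Fibcd1 was at 182 normalized counts in WT CSPG D and at 54.3 to 70.4 in the other WT CSPG libraries. Hspa5 was at 4737 in KO CSPG A and at 4582 to 4597 in the others, and its adjusted p without single libraries was 0.0749 to 0.256. In KO CSPG D, Atf6 was at 527 (584 to 591 in the others) and Tcp1 at 3381 (3507 to 3524). In KO CSPG C, Dnajb11 was at 1073 (963 to 976), Hspa9 at 3877 (3720 to 3723), Dnajc11 at 1003 (1072 to 1078) and Dnajc21 at 282 (249.3 to 254.6). In KO CSPG B, Dnajc24 was at 72.7 (91.0 to 93.0) and Dnajc17 at 129.6 (127.8 to 128.0). In WT CSPG, Dnaja1 was at 1980 in library A (1858 to 1877), Dnajc1 at 470.4 in library C (417 to 420.1), and in library D Hsf1 was at 338 (318 to 321) and Dnajc2 at 686 (715 to 718).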

How the results depend on the processing

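The number of genes called was 73 with no trend of the prior variance, 1 with the Y-linked covariate, 404 with the replicate block and 177 to 550 without single libraries, the highest without WT CSPG D and the lowest without KO CSPG A. The letters A to D gave correlations of deviations of -0.07, 0.10, 0.27 and -0.01, which cannot settle whether a letter marks a shared preparation. Summed fibroblast markers ran in the order B, D, A, C from high to low in both groups. The neuronal and astrocyte sums shared no such order. The block left 0 members higher and 1 lower and changed no call among the members. The count of members lower was 0 with no trend and with the Y-linked covariate, and the count higher was 1, Hspa5, with upper-quartile scaling. That scaling raised the share of calls that were higher from 37.3% to 50.3% and gave medians of 0.0095 for all members and 1.5e-05 for the cytosolic ones, whose median without single libraries was -0.0251 to -0.0039. It turned values near 0 positive for Hspd1 (0.0046), Pdia3 (0.0095), Cct7 (0.0081), Hsp90b1 (0.0046), Hyou1 (0.0113), Dnajb11 (0.0031) and Tcp1 (0.0066).

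With the Y-linked covariate the medians were 0.0087 (all members), 0.0160 (cytosol), 0.0253 (TRiC), -0.0328 (ER), 0.107 (mitochondrion), -0.143 (vesicles) and -0.0133 (transcription factors), and Fibcd1 was at -3.68 (adjusted p = 0.810). Signs turned for Hspd1 (0.107), Dnajc5 (-0.0031), Dnajb14 (-0.247), Dnajc6 (-0.143), Cct6a (0.0246), Dnajb1 (-0.176), Dnajb9 (-0.0328), Hsf1 (0.0123), Atf4 (0.0524), Dnajb11 (0.0845), Tcp1 (0.0876) and Hspa9 (0.0425). Without single libraries the sign turned for 30 of the 85 members, none of them called. Among the genes named by the rule these were Cct3 (-0.0172 to 0.0232), Cct7 (-0.0269 to 0.0108), Cct8 (-0.0085 to 0.0096), Dnaja1 (-0.0100 to 0.0288), Dnajb1 (-0.0243 to 0.0295), Dnajb11 (-0.0467 to 0.0054), Dnajc5 (-0.0106 to 0.0136), Dnajc6 (-0.0151 to 0.0234), Hsp90b1 (-0.0156 to 0.0012), Hspd1 (-0.0354 to 0.0148), Hyou1 (-0.0157 to 0.0117), Pdia3 (-0.0147 to 0.0143) and Tcp1 (-0.0248 to 0.0156). The cause of these shifts was not tested. Of the values under alternatives for genes named by the rule other than Fibcd1, 626 kept direction and side of the threshold, 58 turned sign, and 1 gained a call. Calls were lost in 18, 1 of which also turned sign (Atf4 with the Y-linked covariate). TMM scaling, edgeR and DESeq2 had been planned for whole reads and were not run. The lowest member had a mean of 81.4 normalized counts, and genes with a mean under 40.7 cannot be judged because the table holds none. Low members were measured less tightly. The median standard error was 0.095 for the mitochondrial members (median level 155) and 0.030 for the TRiC subunits (4212).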

Other observations

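Within WT CSPG, Atf4, Ddit3 and Herpud1 and 7 of the 13 genes of the unfolded protein and integrated stress responses had their 2 highest values in libraries A and C, and 0 of the 13 had their 2 lowest values there. Over all 12012 genes 19.5% had their 2 highest values in A and C and 18.8% their 2 lowest. Pdgfra, a marker of oligodendrocyte precursors, was at 126 and 109 normalized counts in A and C and at 260 and 306 in B and D, and Cspg4 at 19.9, 26.2, 46.6 and 51.0 in the same order. Of the same marker list, Olig1 and Mbp did not split this way. The order was not particular to this lineage. Choroid plexus markers summed to 503 and 131 in A and C and to 1192 and 3910 in B and D. Fibroblast and neuronal sums were also lower in A and C, the microglia sum was higher there, and the astrocyte sum was mixed. These orders were noticed after the values were seen, and they were not tested.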
